A study of Mus musculus with 8 samples.

Results

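The genes described here protect cells from oxidants and electrophiles or respond to the aryl hydrocarbon receptor (AhR). They were taken from a list of 45 genes named by function: the NRF2 pathway, glutathione enzymes, peroxide and superoxide scavengers, and AhR with its targets. Each gene was represented by the probe set that lists no other gene symbol and has the highest mean signal over all 8 tumors. This gave a probe set for 43 of the 45 genes, among 19937 genes represented in the same way. The peroxiredoxins Prdx5 and Prdx6 had no such probe set and were not analysed here. The list was put together with earlier results on these tumors known, Cyp1b1 and Gsta4 among them, so counts over the list are descriptions.

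The tumors came from the mouse mammary carcinoma line 4T1, injected into the fourth mammary gland of BALB/c mice. In the preirradiated group (4 tumors) that gland alone had received 20 Gy of X-rays in 1 dose before the cells were placed. In the nonirradiated group (4 tumors) the gland had no treatment. All 8 tumors were taken after 18 days of growth, and all came from this 1 cell line without any genetic change between groups. The cells themselves were not irradiated, so the groups differ in the tissue the tumor grew in. The labels give neither the age of the mice nor the interval between irradiation and injection, and do not say whether the tumors of a group are from different mice. The p-values therefore measure only the spread between these tumors, which may in part be technical. Whole tumor tissue was measured, so fewer cells of a type and less RNA per cell cannot be told apart.

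NRF2 is a transcription factor that the adaptor KEAP1 holds at a low level. Oxidants and electrophiles modify KEAP1, NRF2 then accumulates, and it binds antioxidant response elements near genes for glutathione synthesis, quinone reduction and the thioredoxin system. Glutathione peroxidases and peroxiredoxins reduce peroxides, superoxide dismutases and catalase act on superoxide and hydrogen peroxide, and glutathione transferases couple glutathione to reactive compounds. AhR binds planar aromatic ligands, pairs with ARNT and induces cytochromes P450 of the CYP1 family, while AHRR and TIPARP act back on the receptor. In a tumor these genes are used by carcinoma cells as well as by macrophages, fibroblasts, muscle and fat.

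All values are log2 RMA signals on Affymetrix Mouse Gene 1.0 ST arrays, 1 array per tumor, where a difference of 1 is a doubling of signal. The median over all probe sets ran from 5.937 to 5.977 in nonirradiated and from 5.982 to 5.996 in preirradiated tumors, and correlations between arrays ran from 0.991 to 0.996. The carcinoma label was met by Krt8 and Krt18, epithelial keratins, at 12.45 to 12.63 and 11.80 to 12.03, and by the epithelial adhesion protein Epcam at 9.07 to 10.2. Preirradiated tumors 1 and 3 stood apart. The mean of 15 skeletal muscle genes was 8.68 and 9.91 there, against 6.22 and 6.36 in preirradiated tumors 2 and 4 and 6.19 to 6.44 in nonirradiated tumors. The mean of 9 adipocyte genes was 8.25, 6.34, 6.96 and 6.60 in preirradiated tumors 1 to 4, against 6.15 to 6.71 in nonirradiated tumors. Without Car3, which muscle also expresses, it was 7.84, 6.21, 6.43 and 6.38 against 6.087 to 6.496, so only preirradiated tumor 1 stood above the nonirradiated range. All 11 macrophage genes had a lower mean in preirradiated tumors, with list means of 9.75 to 9.95 against 10.0 to 10.2. Of 11 fibroblast genes 10 had a higher mean, with list means of 9.38 to 9.72 against 9.07 to 9.25. All 10 T and NK cell genes had a lower mean (6.16 to 6.87 against 6.63 to 7.35), and all 10 carcinoma epithelium genes a higher one (9.69 to 10.2 against 9.49 to 9.77). Of the 9 neutrophil, 9 endothelial and 3 red blood cell genes, 2, 8 and 3 had a higher mean. The part of these cell types in the differences below was not tested unless values without a tumor are given.

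No member passed correction for multiple testing, and 33 of 43 differed by less than 0.1, beside 81.6% of all named genes. Among members with an unadjusted p under 0.05, the largest differences were in Cyp1b1, a cytochrome P450 induced by AhR, and Gsta4, a glutathione transferase that clears lipid aldehydes. Both were lower in preirradiated tumors, by 1.44-fold and 1.39-fold. Gpx1, Prdx4 and Gstp1 were lower by smaller amounts, and Sod3, the extracellular superoxide dismutase, was higher by 1.29-fold. The NRF2 gene itself, its regulator Keap1 and its classical targets Nqo1, Gclc, Gclm, Txnrd1 and Srxn1 each differed by less than 0.1 in size, while Hmox1, a further target, differed by 0.23 with overlapping groups. Nqo1 was dim, with a lower mean in only 34% of tested probe sets, and a dim probe set can miss a change.

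**Figure D1:**
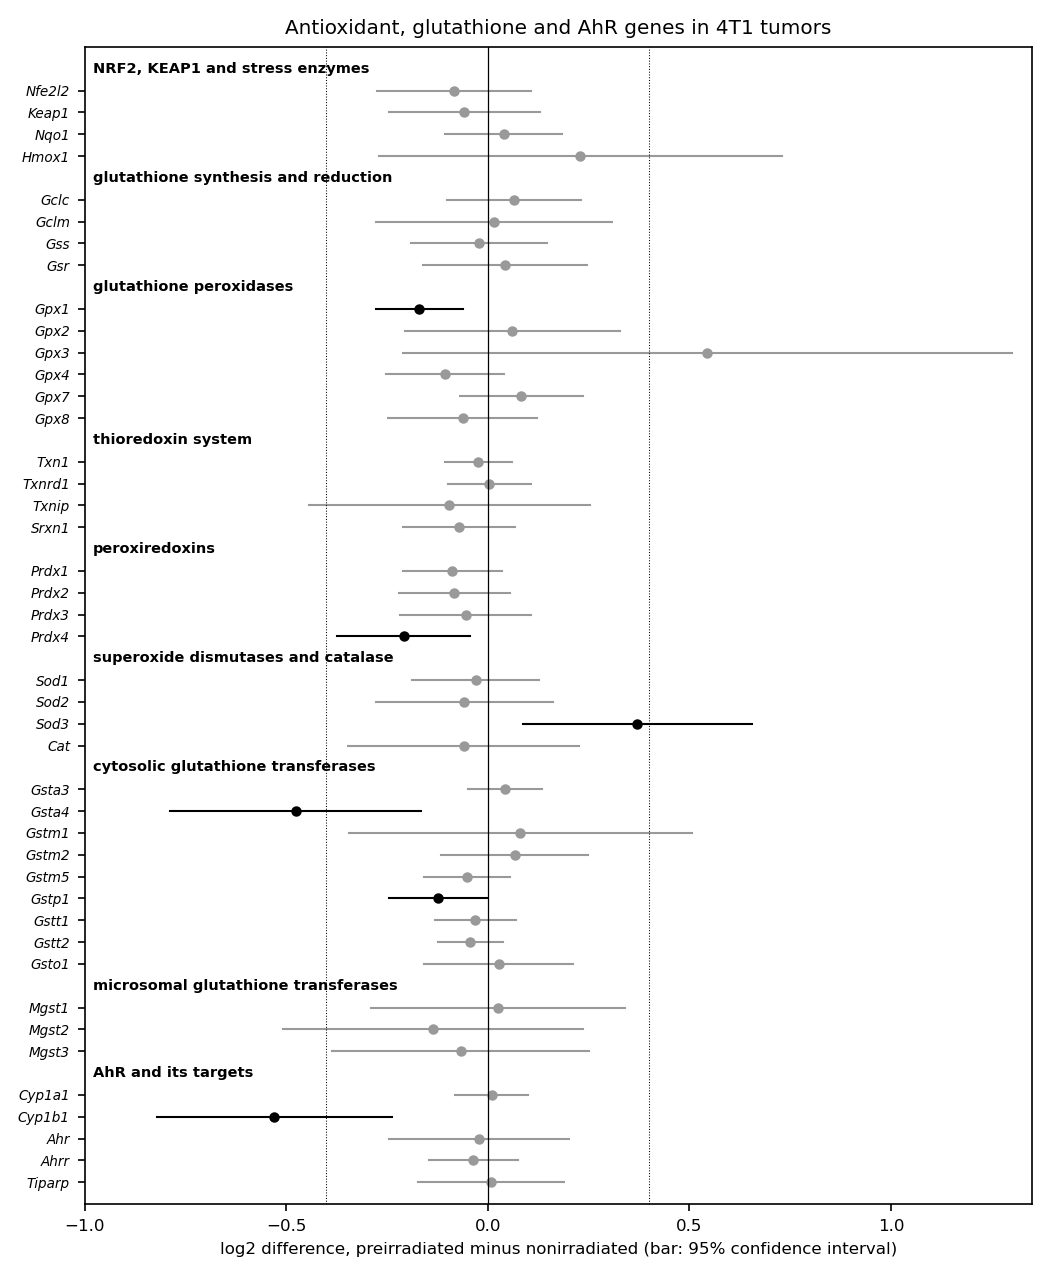
Difference in log2 signal (preirradiated minus nonirradiated, x axis) of the 43 members, grouped by role. Points are fitted differences, bars 95% confidence intervals from limma, black marks an unadjusted p under 0.05, and dotted lines stand at -0.4 and 0.4. Of the 43 points, 33 lie within 0.1 of 0 (81.6% of all named genes do), and Cyp1b1 (-0.53) and Gsta4 (-0.48) lie past -0.4 with a black bar.

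In limma, 0 of 34738 probe sets (0%) had a Benjamini-Hochberg adjusted p under 0.05, and 2015 of them (5.8%) had an unadjusted p below that value. The smallest adjusted p among the members was 0.651. Of 43 members, 6 (14%) had an unadjusted p under 0.05, beside 5.66% of all named genes. Of these, 5 were lower, a direction with 3.27% of named genes, and 1 was higher, a direction with 2.39%. The study's own filter takes an unadjusted p up to 0.05, a log2 change of 0.4 or more and a mean log2 signal of 4.0 or more. It was passed by 2 of 43 members, both lower, beside 0.487% of named genes in either direction and 0.14% lower. In 5 of 43 members the groups did not overlap (11.6%, beside 3.64% of named genes). Of these, 4 were lower (background 1.95%) and 1 was higher (background 1.7%). With each array centred on its median the groups of 8 members did not overlap, 8 lower and 0 higher, beside 5.49% of named genes lower and 0.667% higher. That centring moved the median difference over all probe sets to -0.035, so the split is no result about the members. Over the members the median difference was -0.03, and over all named genes it was -0.0038. The median size of the difference was 0.061 for the members and 0.042 for all named genes. The members' probe sets were brighter, with a median signal of 8.64 against 6.59, and dim probe sets move less under RMA, so the shares are not matched for brightness.

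The AhR group is shown first, because it held the member with the smallest p beside targets of the same receptor. Cyp1b1 oxidizes polycyclic aromatic compounds and estrogens. Its probe set (10453057) read 7.68, 7.54, 8.04 and 7.61 in nonirradiated tumors 1 to 4, and 7.23, 6.92, 7.33 and 7.26 in preirradiated tumors 1 to 4. Every preirradiated tumor lay below every nonirradiated tumor, with preirradiated tumor 2 lowest and nonirradiated tumor 3 highest. The group means were 7.72 ± 0.23 and 7.19 ± 0.18 (SD, n = 4 each). The difference was -0.53 (SE 0.127; limma adjusted p = 0.651). Without preirradiated tumors 1 and 3, those high in muscle genes, the difference was -0.62.

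The other 4 AhR genes each differed by less than 0.1 in size. Cyp1a1, the best known AhR target and an enzyme of aromatic hydrocarbon oxidation, ran from 4.93 to 5.03 in nonirradiated and from 4.94 to 5.03 in preirradiated tumors. These are low signals: only 23.8% of tested probe sets had a lower mean. The Cyp1a1 difference was 0.01 (95% interval -0.08 to 0.10), so a change of the size seen in Cyp1b1 lies outside its interval, although a dim probe set can miss a change of a rare transcript. Ahrr, the AhR repressor, was as dim, with means of 5.09 ± 0.06 and 5.05 ± 0.06 (n = 4 each). Tiparp, an AhR-induced ADP-ribosyltransferase, was clearly above that level in both groups, at 8.64 ± 0.07 in nonirradiated and 8.64 ± 0.16 in preirradiated tumors, with a 95% interval of the difference from -0.17 to 0.19. Ahr itself was 10.10 ± 0.14 and 10.08 ± 0.17, and the 95% interval of its difference ran from -0.24 to 0.20.

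To show what these genes have in common near their start sites, promoters were read from RefSeq (GRCm38.p6), where 36 of the 43 measured members have an entry of 250 bases before to 50 bases after a start. The core of the AhR/ARNT element, GCGTG on either strand, was in the promoters of Cyp1b1, Cyp1a1, Ahrr and Tiparp. It is a short motif, in 32.4% of all 32851 promoters and in 26 of 43 promoters of measured members (60.5%), Gclm, Txnrd1, Keap1, Gpx1 and Sod2 among them, so it does not mark the AhR genes. The 200 bases upstream of each start are given 5′ to 3′ on the gene's strand, with the core or its reverse complement CACGC in capitals. They lie at chr17:79715062-79715261 (minus strand, Cyp1b1), chr9:57697413-57697612 (plus, Cyp1a1), chr13:74292332-74292531 (minus, Ahrr) and chr3:65528247-65528446 (plus, Tiparp).
Cyp1b1: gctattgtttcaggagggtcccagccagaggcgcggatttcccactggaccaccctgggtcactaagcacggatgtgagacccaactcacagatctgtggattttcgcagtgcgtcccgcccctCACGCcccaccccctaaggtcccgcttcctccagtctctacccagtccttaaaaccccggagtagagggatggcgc
Cyp1a1: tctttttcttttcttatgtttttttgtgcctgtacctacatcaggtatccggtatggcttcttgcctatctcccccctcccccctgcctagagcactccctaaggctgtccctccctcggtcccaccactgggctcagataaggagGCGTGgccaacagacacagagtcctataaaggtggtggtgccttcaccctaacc
Ahrr: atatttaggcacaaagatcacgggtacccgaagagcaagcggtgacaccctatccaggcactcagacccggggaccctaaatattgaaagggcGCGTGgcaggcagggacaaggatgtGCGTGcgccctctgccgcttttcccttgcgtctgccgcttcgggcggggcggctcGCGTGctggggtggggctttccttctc
Tiparp: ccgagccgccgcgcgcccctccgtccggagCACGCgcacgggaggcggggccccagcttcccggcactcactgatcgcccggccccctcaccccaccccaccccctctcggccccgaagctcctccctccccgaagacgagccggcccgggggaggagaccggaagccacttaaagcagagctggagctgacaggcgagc
Cyp1b1, Cyp1a1 and Tiparp each had 1 match in this stretch and Ahrr had 3, so Cyp1b1 had as many as Cyp1a1 and Tiparp. A match is only a run of letters and does not show that the receptor binds there.

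**Figure D2:**
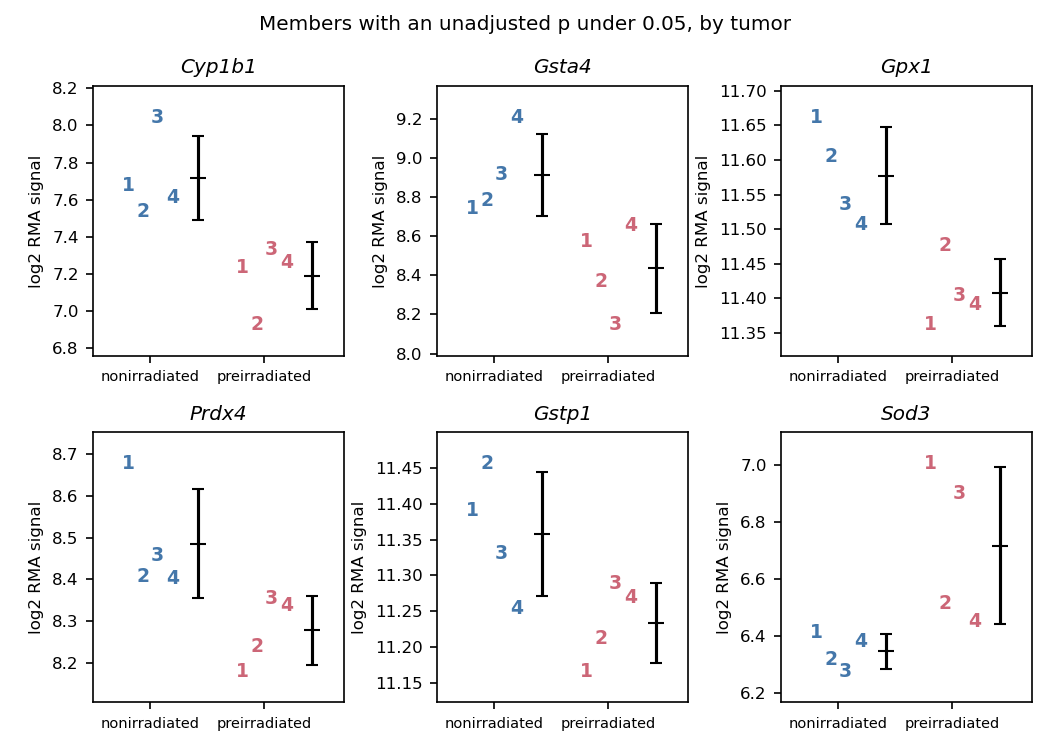
Log2 RMA signal (y axis, a separate scale in each panel) of the 6 members with an unadjusted p under 0.05, by group. Digits are the tumor numbers, and bars show the group mean ± SD. For Cyp1b1, Gsta4, Gpx1 and Prdx4 all preirradiated tumors lie below all nonirradiated tumors, for Sod3 they lie above, and for Gstp1 the groups overlap.

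Among NRF2, KEAP1 and the stress enzymes, 0 of 4 genes had an unadjusted p under 0.05. Nfe2l2, the gene of NRF2, was 10.97 ± 0.12 in nonirradiated and 10.89 ± 0.14 in preirradiated tumors. Keap1 was 8.46 ± 0.08 and 8.40 ± 0.16. Nqo1, the quinone reductase that is often used as a readout of NRF2 activity, was dim in all tumors, from 5.16 to 5.32 in nonirradiated and from 5.21 to 5.46 in preirradiated ones. Hmox1, heme oxygenase, which opens the heme ring and is also used by macrophages that take up red cells, varied far more between tumors than between groups. It read 9.35, 9.64, 10.28 and 9.61 in nonirradiated tumors and 10.31, 9.54, 9.94 and 10.01 in preirradiated tumors. Nonirradiated tumor 3 was nearly as high as preirradiated tumor 1, and the SD of Hmox1 over all 8 tumors was larger than that of 97.1% of tested probe sets. The Hmox1 difference was 0.23 (95% interval -0.27 to 0.73). Without nonirradiated tumor 3 it was 0.42, past the study's filter, and without preirradiated tumors 1 and 3 it was 0.05.

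In glutathione synthesis and reduction 0 of 4 genes had an unadjusted p under 0.05, and all 4 differences were within 0.1 of 0. Gclc and Gclm, the catalytic and modifier subunits of the rate-limiting ligase, differed by 0.07 and 0.01, with 95% intervals from -0.10 to 0.23 and from -0.28 to 0.31. Both were lowest in nonirradiated tumor 2, at 8.21 and 8.41,. Gss, glutathione synthetase, was 7.91 ± 0.07 and 7.88 ± 0.14, and Gsr, which regenerates reduced glutathione, was 10.47 ± 0.10 and 10.52 ± 0.17 (n = 4 each).

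The thioredoxin system had the lowest median SD over the 8 tumors of the 9 roles, 0.0713. Txn1, thioredoxin, ran from 12.88 to 12.97 in nonirradiated and from 12.86 to 12.93 in preirradiated tumors, and its SD over 8 tumors was larger than that of only 5.8% of tested probe sets. Txnrd1, the selenoenzyme that reduces thioredoxin and a target of NRF2, was 9.04 ± 0.01 and 9.04 ± 0.08, with a 95% interval of the difference from -0.10 to 0.11. Srxn1, sulfiredoxin, which repairs overoxidized peroxiredoxins, was 8.44 ± 0.06 and 8.37 ± 0.11. Txnip, the inhibitor of thioredoxin, varied more, from 9.99 to 10.65 in nonirradiated and from 9.98 to 10.47 in preirradiated tumors, with overlapping groups. In this role 0 of 4 genes had an unadjusted p under 0.05.

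Antioxidant response element cores were searched in the same promoters as TGACNNNGC on either strand. They were in 9 of the 43 promoters of measured members (20.9%) and in 12.4% of all promoters. In 2 of the members' promoters, those of Sod1 and Gstm5, a match shares bases with a GCGTG match. The stretches from 150 to 81 bases upstream of a start are shown for 3 NRF2 pathway members that did not differ past the threshold, with the match in capitals. They lie at chr3:122245407-122245476 (Gclm), chr10:82859056-82859125 (Txnrd1) and chr4:116685449-116685518 (Prdx1), all on the plus strand. Txnrd1 has several starts among these promoters, and the start with a match was the one shown.
Gclm: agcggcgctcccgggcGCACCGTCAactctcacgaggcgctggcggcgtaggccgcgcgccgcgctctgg
Txnrd1: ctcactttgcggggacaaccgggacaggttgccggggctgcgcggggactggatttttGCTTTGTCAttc
Prdx1: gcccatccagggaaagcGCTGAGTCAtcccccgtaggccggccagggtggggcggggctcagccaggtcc
All 3 matches read on the opposite strand. Gpx1, Prdx4 and Cyp1b1, lower without overlap, had no match in their windows, which says nothing about sites outside them, and Gsta4 has no entry among these promoters.

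Of the 6 glutathione peroxidases, 1 had an unadjusted p under 0.05. Gpx1, the cytosolic selenoenzyme that reduces hydrogen peroxide, read 11.66, 11.61, 11.54 and 11.51 in nonirradiated tumors and 11.36, 11.48, 11.40 and 11.39 in preirradiated tumors. The groups did not overlap, but the gap between nonirradiated tumor 4 and preirradiated tumor 2 was narrow, and they overlapped when quantile normalization was run once more. The Gpx1 difference was -0.17 (SE 0.047; limma adjusted p = 0.727), or 1.12-fold lower. Without preirradiated tumors 1 and 3 it was -0.14 and no longer had an unadjusted p under 0.05. Gpx4, which reduces lipid hydroperoxides in membranes and so restrains ferroptosis, was 11.03 ± 0.13 and 10.92 ± 0.04. A further probe set of Gpx4 differed by -0.14, close to the -0.11 of the brighter one. The correlation between both sets over the 8 tumors was 0.58. Without nonirradiated tumor 4 the Gpx4 difference was -0.16, with an unadjusted p under 0.05.

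Gpx3, the secreted peroxidase of plasma, had the widest spread of the members. It read 8.45, 8.59, 8.82 and 8.80 in nonirradiated tumors and 9.19, 8.98, 10.23 and 8.44 in preirradiated tumors. Preirradiated tumor 3 was far above all others, while preirradiated tumor 4 was the lowest of the 8, so the groups overlapped. The Gpx3 difference was 0.54 with a 95% interval from -0.21 to 1.30, and the SD over 8 tumors exceeded that of 99.5% of tested probe sets. The difference was 0.20 without preirradiated tumor 3, 0.80 without preirradiated tumor 4 (past the study's filter) and 0.04 without preirradiated tumors 1 and 3. The muscle list was highest in preirradiated tumor 3, at 9.91. It was 6.22 in preirradiated tumor 2, where Gpx3 also lay above all nonirradiated tumors. Gpx2, the form of gut epithelium, Gpx7 and Gpx8, forms of the endoplasmic reticulum, differed by 0.06, 0.08 and -0.06 with overlapping groups.

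The 4 measured peroxiredoxins, thiol enzymes that reduce peroxides, all had a lower mean in preirradiated tumors, and 1 of 4 had an unadjusted p under 0.05. Prdx4, the form of the endoplasmic reticulum, read 8.68, 8.41, 8.46 and 8.40 in nonirradiated and 8.18, 8.24, 8.36 and 8.34 in preirradiated tumors. The groups did not overlap, and nonirradiated tumor 1 was the highest. The Prdx4 difference was -0.21 (SE 0.072; limma adjusted p = 0.810). The unadjusted p was above 0.05 without preirradiated tumor 1 (-0.18), without preirradiated tumors 1 and 3 (-0.20) and with the title number as a block (-0.21).

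Prdx1, Prdx2 and Prdx3, of the cytosol and, for Prdx3, the mitochondrion, differed by -0.09, -0.08 and -0.05 and overlapped between groups. Nonirradiated tumor 1 was the highest of the 8 tumors in all 4 peroxiredoxins, at 11.40, 11.87, 9.26 and 8.68 for Prdx1 to Prdx4, and preirradiated tumor 1 was the lowest in all 4, at 11.12, 11.54, 8.89 and 8.18. The same tumors therefore stood at both extremes in the probe sets used for the 4 measured peroxiredoxins. Prdx1 and Prdx2 each have a further probe set, with differences of -0.09 and -0.04. That of Prdx1 had the same extremes, but that of Prdx2 did not. There nonirradiated tumor 1 was the lowest of its group (9.55), preirradiated tumor 2 the highest of all (9.62) and preirradiated tumor 3 the lowest (9.45). Its correlation with the main Prdx2 probe set over the 8 tumors was 0.435. Its group means were 9.57 and 9.53, against 11.75 and 11.66 in the main set. Yet the annotation gives both Prdx2 sets 7 sequence records in common, of 8 in the main set. Both Prdx1 sets have the same 5 records. Which Prdx2 set follows the gene better was not tested. Without nonirradiated tumor 1, Prdx1 differed by -0.04 and Prdx3 by 0.0063.

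**Figure D3:**
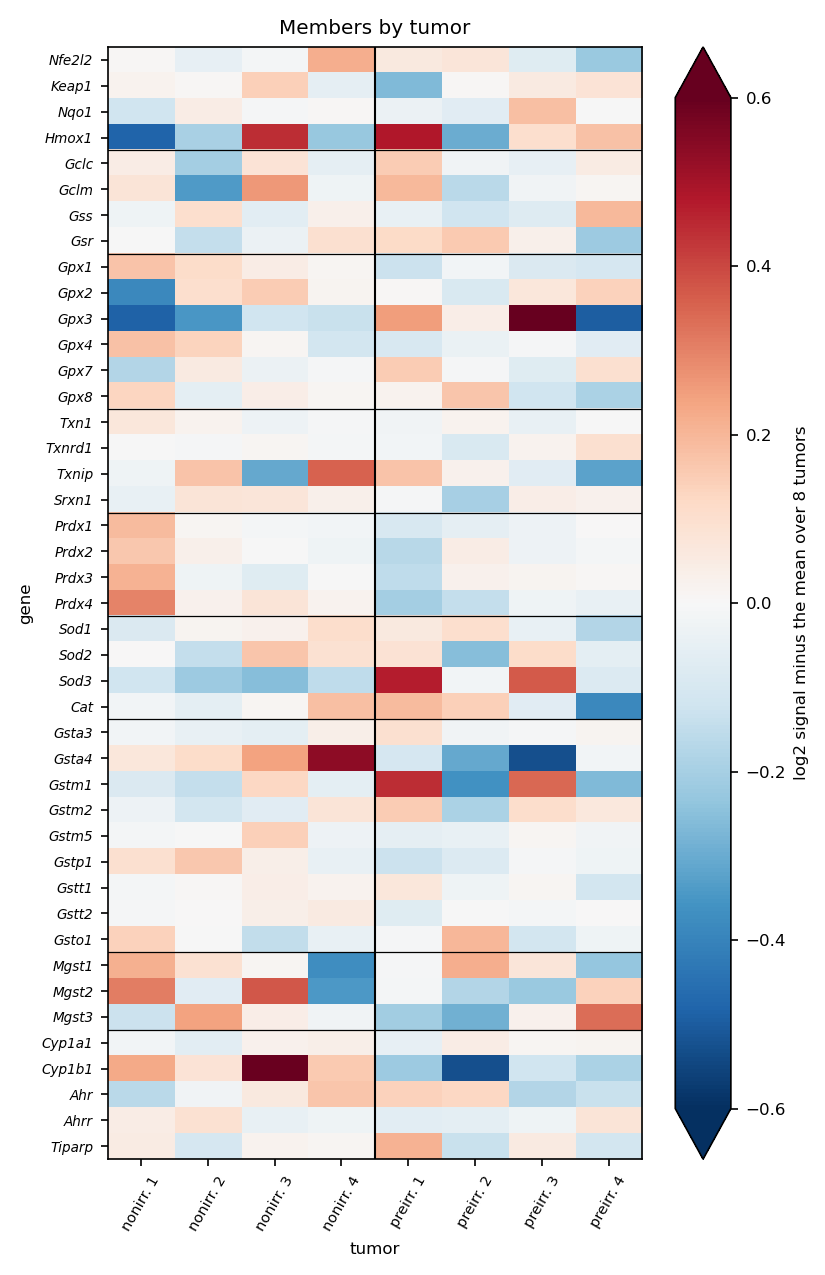
Log2 signal of each member (rows, ordered by role) in each tumor (columns), minus the member's mean over 8 tumors, with colours saturating at -0.6 and 0.6. The 4 peroxiredoxins are red in nonirradiated tumor 1 and blue in preirradiated tumor 1, and Gpx3, Sod3 and Gstm1 are red in preirradiated tumors 1 and 3.

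Among the superoxide dismutases and catalase, 1 of 4 had an unadjusted p under 0.05. Sod3, the extracellular superoxide dismutase held on matrix and vessel walls, read 6.41, 6.32, 6.28 and 6.38 in nonirradiated tumors and 7.005, 6.51, 6.90 and 6.45 in preirradiated tumors. All preirradiated tumors were above all nonirradiated tumors, but preirradiated tumors 1 and 3 were well above the others and tumor 4 exceeded nonirradiated tumor 1 by little. The means were 6.72 ± 0.28 and 6.35 ± 0.06 (SD, n = 4 each). The difference was 0.37 (SE 0.124; limma adjusted p = 0.809). Without preirradiated tumors 1 and 3, which were high in muscle genes, it was 0.14 and had an unadjusted p above 0.05. It passed the study's filter without preirradiated tumor 2 (0.44) or preirradiated tumor 4 (0.46) and with array weights, and missed it otherwise. With each array centred on its median the Sod3 groups overlapped.

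The 3 intracellular enzymes each differed by less than 0.1 in size. Sod1, of the cytosol, was 11.12 ± 0.08 in nonirradiated and 11.09 ± 0.12 in preirradiated tumors, with a 95% interval of the difference from -0.19 to 0.13. Sod2, of the mitochondrion and inducible by inflammation, was 9.88 ± 0.13 and 9.82 ± 0.17. Cat, the catalase of peroxisomes, ran from 10.52 to 10.76 and from 10.19 to 10.77, and preirradiated tumor 4 was the lowest of the 8.

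Of the 9 cytosolic glutathione transferases 2 had an unadjusted p under 0.05, both lower. Gsta4, an alpha class enzyme with high activity towards the lipid peroxidation product hydroxynonenal, read 8.74, 8.78, 8.92 and 9.21 in nonirradiated and 8.57, 8.37, 8.15 and 8.66 in preirradiated tumors. All preirradiated tumors were below all nonirradiated tumors, with nonirradiated tumor 4 highest and preirradiated tumor 3 lowest. The means were 8.91 ± 0.21 and 8.44 ± 0.23 (SD, n = 4 each). The difference was -0.48 (SE 0.136; limma adjusted p = 0.755). Leaving out nonirradiated tumor 4 or preirradiated tumor 3 gave -0.38 each time, short of the study's filter. The value was -0.40 without preirradiated tumors 1 and 3.

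Gstp1, the pi class enzyme and a major transferase of many carcinomas, read 11.39, 11.46, 11.33 and 11.25 in nonirradiated and 11.17, 11.21, 11.29 and 11.27 in preirradiated tumors. The groups overlapped at nonirradiated tumor 4. The difference was -0.12 (SE 0.053; limma adjusted p = 0.851), and it kept a p under 0.05 in 7 of 18 alternative settings. Gstp1 has a close copy, Gstp2, and the array may not separate their transcripts.

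Gstm1, a mu class transferase, separated the preirradiated tumors from each other. It read 8.13 and 8.03 in preirradiated tumors 1 and 3, above all nonirradiated tumors (7.60, 7.54, 7.81 and 7.63), and 7.32 and 7.42 in preirradiated tumors 2 and 4, below them all. The mean difference was 0.08, and without preirradiated tumors 1 and 3 it turned to -0.27, with an unadjusted p under 0.05. The skeletal muscle list was 8.68 and 9.91 in those tumors and at most 6.36 in the other preirradiated tumors. Gstm2, of the same class, was also highest in preirradiated tumors 1 and 3 (8.42 and 8.37) and lowest in tumor 2 (8.08), but tumor 4 (8.33) lay within the nonirradiated range. The Gstm2 difference was 0.07, and 0.14 without preirradiated tumor 2, with an unadjusted p under 0.05 there only. Mu class genes are similar in sequence, so their probe sets may share signal.

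**Figure D4:**
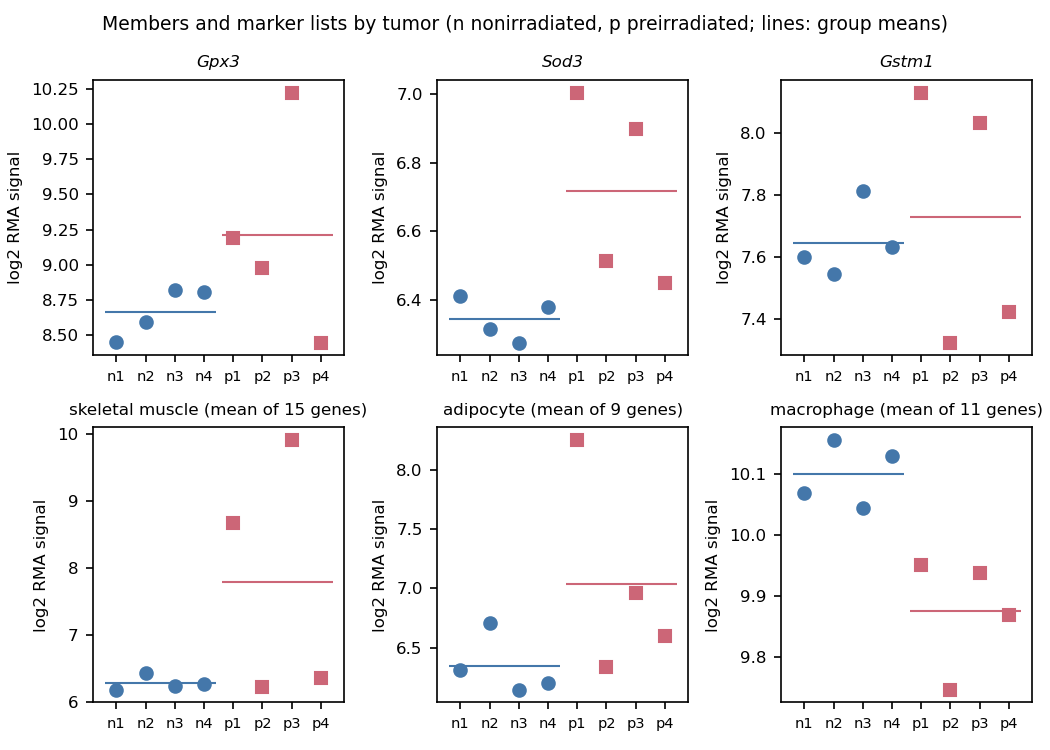
Log2 RMA signal (y axis, a separate scale in each panel) of Gpx3, Sod3 and Gstm1 and the mean signal of the skeletal muscle, adipocyte and macrophage lists in each tumor, with lines at the group means. Preirradiated tumors 1 and 3 are the highest for Gpx3, Sod3, Gstm1 and the muscle list, the adipocyte list is highest in preirradiated tumor 1, and macrophage means are below 10 in all preirradiated tumors.

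The remaining transferases hardly differed. Gsta3, Gstt1 and Gstt2 were dim, with means between 5.13 and 5.86, and differed by 0.04, -0.03 and -0.04. Gstm5 differed by -0.05. Gsto1, an omega class enzyme that also reduces dehydroascorbate, was 9.26 ± 0.12 and 9.29 ± 0.13. The microsomal transferases Mgst1, Mgst2 and Mgst3, membrane enzymes that also act on lipid hydroperoxides, had SDs of 0.15 to 0.34 within groups. They differed by 0.03, -0.14 and -0.07, and 0 of 3 had an unadjusted p under 0.05. Mgst2 was lowest in nonirradiated tumor 4, at 7.77, and highest in nonirradiated tumor 3, at 8.49, so its range lay within the nonirradiated group.

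Other genes of the same pathways, and genes that make reactive oxygen, were counted by list. Of 100 such genes measured, 0 passed the study's filter, and 5 (5.0%, beside 5.66% of named genes) had an unadjusted p under 0.05, all lower. These 5 include Rac2 and Cyba, of the genes that make reactive oxygen, which are described under other observations. The differences ran from -0.27 to 0.40. The highest was in Me1, a malic enzyme that makes NADPH, with overlapping groups and an adjusted p of 0.863 in limma. Among 31 further NRF2 targets and partners there were 2. Blvrb, a biliverdin reductase of heme breakdown, was 9.31 ± 0.10 in nonirradiated and 9.04 ± 0.08 in preirradiated tumors without overlap, a difference of -0.27 (limma adjusted p = 0.644). Aldh3a1, an aldehyde dehydrogenase that also stands in the AhR list, was 5.70 ± 0.11 and 5.46 ± 0.09 (limma adjusted p = 0.738) and overlapped at preirradiated tumor 4. Of 25 further glutathione genes 1 had an unadjusted p under 0.05. This was Glrx, a glutaredoxin, with a difference of -0.21, overlapping groups and a limma adjusted p of 0.812. Of 23 further thioredoxin, selenoprotein and scavenger genes 0 had an unadjusted p under 0.05. Of 11 further AhR pathway genes Aldh3a1 was the only one with such a p. Glrx and Me1 were named after their values were seen.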

How the data were processed

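Total RNA of tissue from 8 tumors was amplified, labelled with biotin and hybridized to 1 array each, per the labels' protocols. The authors computed the deposited log2 values, 1 per probe set, by RMA in the affy package, per the series' design text. RMA corrects background, makes array distributions alike and summarises probes. R 2.15.3 stands beside affy in the submitters' processing notes. The chip description file that assigns probes to sets was not given in the sources used here.

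Of 34760 probe sets, 34738 had a mean of at least 4.0, the study's limit, and were tested. Names came from the platform annotation: 21640 probe sets listed 1 symbol, 1321 several and 11799 none, and genes were taken only from the first kind. Samples were grouped by their titles. Preirradiated minus nonirradiated was fitted with limma 3.58.1 in R 4.3.3 (lmFit, eBayes, two-sided, no covariates) with Benjamini-Hochberg adjustment over all tested probe sets. The pipeline was tested on simulated data. The members, the pathway and marker lists and the naming rule (all members; other pathway genes past the study's filter or with an unadjusted p under 0.01) were chosen with earlier results of these data known. The design text's change limit was read in either direction. The number of arrays limits the precision. Titles number tumors 1 to 4 in both groups, and a fit with this number as a block was an alternative, beside the expression limit, variance model, normalization, array weights, probe set choice and leaving out tumors.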

Additional observations from a re-analysis of the deposited data

Results flagged for a closer look

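In groups of 4 tumors, a tumor was looked at again where its gap to the nearest other tumor was large against the group's range by Dixon's 95% limit. Chance gives this in about 1 of 20 groups, and it occurred in 3 of the 86 groups of members. Prdx1, a cytosolic peroxiredoxin, was 11.402 in nonirradiated tumor 1, with the next tumor at 11.228. Prdx3, the mitochondrial peroxiredoxin, was 8.893 in preirradiated tumor 1, with the next at 9.055. Gstm5, a mu class glutathione transferase, was 7.104 in nonirradiated tumor 3, with the next at 6.958.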

How the results depend on the processing

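With 18 alternative settings per gene (17 for Cyp1a1, whose mean is below 5.0), Cyp1b1 and Gsta4 kept their direction and an unadjusted limma p under 0.05 in all 18, and Cyp1b1 also passed the study's filter in all 18, with differences from -0.62 to -0.42. The adjusted threshold was passed by 0 probe sets in every setting run. Centring each array on its median gave 8 members without overlap in place of 5 (beside 6.15% of named genes in place of 3.64%) and a median member difference of -0.064, with -0.035 over all probe sets. With array weights 1 other pathway gene, Me1, passed the study's filter. Without preirradiated tumors 1 and 3, 3 members had an unadjusted p under 0.05 and 8 had no overlap (beside 3.03% and 10.7% of named genes; fewer tumors separate more often, so the 8 cannot be set against the 5 of all tumors), and Gstm1 turned to -0.27. Leaving out 1 tumor gave 4 to 7 members at an unadjusted p under 0.05, beside 3.97% to 7.55% of named genes. It left 5 to 7 members without overlap, beside 5.39% to 8.3% of named genes, again with fewer tumors to separate. From 1 to 4 members and 0 to 1 other pathway genes passed the study's filter. Median member differences ran from -0.041 to -0.0097. Filter calls changed without nonirradiated tumor 3 (Hmox1 and Nos2 joined), nonirradiated tumor 4 or preirradiated tumor 3 (Gsta4 left), preirradiated tumor 2 (Sod3 joined) and preirradiated tumor 4 (Gpx3, Sod3 and Me1 joined). The cause of these changes was not tested beyond the removal of the tumors named. With the replicate block 4 members had an unadjusted p under 0.05, beside 3.77% of named genes. In that fit 2 members passed the study's filter, and 0 probe sets passed the adjusted threshold. No sign that the titles' numbers pair the tumors was seen: deviations from the group means of same-numbered tumors correlated at -0.289 to -0.075. Those of differently numbered tumors correlated at -0.174 to 0.347. With so few tumors these correlations cannot exclude a pairing. Of the 43 members 22 changed sign in at least 1 setting. Gstm1 was the only one of them that did so with an unadjusted p under 0.05. Nos2 and Me1 were named after their values were seen.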

Other observations

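Genes that make reactive oxygen were part of the 100 other pathway genes counted above. Of 12 such genes 2 had an unadjusted p under 0.05, both lower in preirradiated tumors, beside 3.27% of named genes in that direction, and 0 passed the study's filter. Rac2, the small GTPase that activates the phagocyte NADPH oxidase, was 10.58 ± 0.07 in nonirradiated and 10.31 ± 0.13 in preirradiated tumors without overlap (difference -0.26, limma adjusted p = 0.674). Cyba, a membrane subunit of the same oxidase, was 11.76 ± 0.07 and 11.56 ± 0.11 (difference -0.21, limma adjusted p = 0.773). Cyba was named after its values were seen, and its groups overlapped. The macrophage list mean was lower in all 4 preirradiated tumors (9.75 to 9.95 against 10.0 to 10.2). The T and NK cell list was also lower in the mean, with overlap (6.16 to 6.87 against 6.63 to 7.35). In preirradiated tumors 1 to 4 Rac2 read 10.22, 10.44, 10.40 and 10.19. There the macrophage list was 9.95, 9.75, 9.94 and 9.87, and the T and NK cell list 6.16, 6.87, 6.87 and 6.425. The part of either list in these differences was not tested.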
